A study of Mus musculus with 9 samples.

Results

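This is an account of CD8 T cells under anergy conditions set against naive CD8 T cells, taken from a study of glycosylation genes in immune tolerance. The comparison takes 6 of the series' 9 arrays, chosen by their labels: 3 arrays of anergy cells and 3 arrays of naive cells. All the cells were transgenic CD8 T cells from female mice of the B10D2 strain. The labels call the stimulated cells purified and T cell receptor transgenic, the naive cells only transgenic, and they give no purification method. The anergy cells had met cognate antigen in vivo as a strong signal, and the naive cells were the control. The other 3 arrays are of cells that met the antigen in vivo as a weak signal (deletion conditions), and they are used here for the shared estimate of the spread and as a second reference. The sources used here do not give the receptor, the antigen, its dose, the time after it or the age of the mice. Nor do the labels say whether each replicate came from a separate mouse. The p-values therefore cover the spread between these 3 arrays a group alone, and that spread may be technical.

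CD8 T cells that meet antigen outside an infection can become tolerant, either by dying or by staying alive in an unresponsive state called anergy. A naive CD8 T cell circulates through lymph nodes with the help of homing receptors and depends on interleukin-7 for survival. Activation exchanges this program for one of division, effector cytokines and entry into other tissues, and it also alters the sugars on the cell surface, which are built stepwise by glycosyltransferases and sulfotransferases in the Golgi and read by lectins such as galectins, selectins and Siglecs.

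RNA was hybridised to GLYCOv4, a single-colour Affymetrix array of 1246 probe sets that covers enzymes of glycosylation as well as lectins, proteoglycans, cytokines and their receptors. Values are log2 expression values from RMA, so a difference of 1 is a 2-fold difference, and they are not levels that can be set against each other between probe sets. The arrays of a group correlated at 0.995 to 0.998 with each other. Within these 6 arrays the leading principal component held 90.7% of the variance and placed the naive arrays at -13.27 to -12.19 and the anergy arrays at 12.33 to 13.43. Anergy replicate 3 stood apart from its group on the next component (4.89% of the variance), at 5.71 against -3.19 and -2.71 for the other two anergy arrays. Its values are therefore given separately where they depart.

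A probe set was called when its adjusted p in limma (Benjamini-Hochberg over all 1246) was under 0.05. By this rule 334 probe sets (26.8%) differed between anergy and naive cells, 134 higher (10.8%) and 200 lower (16.1%) in anergy. Of these, 38 were at least 2-fold higher (3.05%) and 42 at least 2-fold lower (3.37%). The replicates of the groups did not overlap for 422 probe sets (33.9%), among them 327 of the 334 called. With 1 probe set for each of the 909 genes that could be named, 270 genes were called (29.7%), 114 higher (12.5%) and 156 lower (17.2%), and these shares are the background for every gene list below. The median difference over all probe sets was 0.01, and the same over the 909 genes.

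To show where in the genome some genes that moved far start, the 250 bases before the annotated start are printed for 4 genes that rose, Xcl1, Ccl3, Ifng and Klrc1, and for 2 that fell, Ccr9 and Galnt10. The sequences are from RefSeq (GRCm38.p6), 5′ to 3′ in the direction of the gene and each directly upstream of the annotated start. Capitals mark 3 motifs, searched on both strands. The core of NFAT sites was searched as GGAAA. The AP-1 site was searched as TGANTCA. The TATA box was searched as TATAAA. Where matches touch, their capitals run together. Xcl1 lies at chr1:164935523-164935772 on the minus strand, Ccl3 at chr11:83649379-83649628 on the minus strand, Ifng at chr10:118440796-118441045 on the plus strand, Klrc1 at chr6:129678974-129679223 on the minus strand, Ccr9 at chr9:123766961-123767210 on the plus strand and Galnt10 at chr11:57645192-57645441 on the plus strand.
Xcl1: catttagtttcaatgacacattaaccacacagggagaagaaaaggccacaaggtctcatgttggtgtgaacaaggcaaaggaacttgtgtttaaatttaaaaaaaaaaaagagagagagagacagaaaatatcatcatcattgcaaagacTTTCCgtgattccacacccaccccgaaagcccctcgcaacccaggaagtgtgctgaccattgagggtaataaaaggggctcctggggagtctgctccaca
Ccl3: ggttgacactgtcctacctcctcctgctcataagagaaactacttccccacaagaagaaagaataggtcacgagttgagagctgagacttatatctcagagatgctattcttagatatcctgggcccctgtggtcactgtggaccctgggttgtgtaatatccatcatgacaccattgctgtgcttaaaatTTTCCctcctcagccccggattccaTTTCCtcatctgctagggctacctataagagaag
Ifng: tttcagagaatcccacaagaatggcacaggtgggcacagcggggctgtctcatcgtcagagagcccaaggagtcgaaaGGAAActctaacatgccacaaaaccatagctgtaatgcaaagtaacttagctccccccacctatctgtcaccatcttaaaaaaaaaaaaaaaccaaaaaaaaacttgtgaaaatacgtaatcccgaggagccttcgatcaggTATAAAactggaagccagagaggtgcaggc
Klrc1: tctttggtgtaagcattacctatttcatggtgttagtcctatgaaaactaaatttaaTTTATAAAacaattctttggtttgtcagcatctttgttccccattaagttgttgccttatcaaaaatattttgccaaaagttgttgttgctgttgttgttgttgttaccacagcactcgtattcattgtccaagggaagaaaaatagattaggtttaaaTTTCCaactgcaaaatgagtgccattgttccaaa
Ccr9: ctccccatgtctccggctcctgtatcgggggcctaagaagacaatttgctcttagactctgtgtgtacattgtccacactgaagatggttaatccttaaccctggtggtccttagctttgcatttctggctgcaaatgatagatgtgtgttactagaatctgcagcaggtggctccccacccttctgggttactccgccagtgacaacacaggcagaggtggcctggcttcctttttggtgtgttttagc
Galnt10: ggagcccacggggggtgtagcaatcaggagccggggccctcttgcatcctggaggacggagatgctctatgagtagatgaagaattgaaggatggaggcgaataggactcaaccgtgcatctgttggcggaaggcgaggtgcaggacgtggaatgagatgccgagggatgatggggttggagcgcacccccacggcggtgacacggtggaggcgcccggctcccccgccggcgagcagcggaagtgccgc
GGAAA was found 2 times in Ccl3 and 1 time each in Xcl1, Ifng and Klrc1, and not in the windows of Ccr9 and Galnt10. TATAAA was found in Ifng, 30 bases before the start, and in Klrc1 as 2 overlapping matches, one on each strand. TGANTCA was in none of the 6. GGAAA is common: 55.6% of all 32851 upstream windows hold it, 15 of 27 genes at least 2-fold higher in anergy (55.6%) and 10 of 25 genes at least 2-fold lower (40.0%). For TGANTCA the shares were 6.7%, 0 of 27 and 2 of 25 (8.0%), and for TATAAA 12.4%, 4 of 27 (14.8%) and 1 of 25 (4.0%). These are descriptions of letters in a window, with no test.

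Among the effector genes, Xcl1, Ccl3, Ccl4 and Ifng rose at least 9-fold in anergy cells. Xcl1, a chemokine that draws cross-presenting dendritic cells, gave 5.47, 5.61 and 5.13 in the naive arrays, in the order of their replicate numbers, and 10.80, 10.68 and 10.68 in the anergy arrays. All 3 anergy arrays lay far above the naive ones, a 39.9-fold rise (95% limits 28.9 to 55.0; n = 3 arrays per group; limma adjusted p = 3.8e-08). In bulk RNA, here and below, fewer cells with a transcript and less of it in each cell cannot be told apart. Ifng, the main effector cytokine of CD8 T cells, gave 4.15, 4.43 and 3.82 in naive cells and 7.76, 8.26 and 8.48 in anergy cells. This was 16.4-fold (9.85 to 27.2; adjusted p = 9.01e-06), with the widest limits of these genes. Ccl3, an inflammatory chemokine, gave 3.78, 3.94 and 3.93 against 7.70, 7.96 and 8.14, a rise of 16.6-fold (11.8 to 23.3; adjusted p = 3.52e-07). Ccl4, a related chemokine, gave 4.29, 4.57 and 4.63 against 7.72, 7.79 and 7.81, a rise of 9.69-fold (6.70 to 14; adjusted p = 3.63e-06). None of these 4 passed against deletion cells in the same fit. The limma adjusted p was 0.318 for Xcl1, 0.664 for Ifng, 0.671 for Ccl3 and 0.0863 for Ccl4. For Ccl4 the difference from deletion was -0.86, and its call depended on the fit. It passed with a replicate block over all 9 arrays (limma adjusted p = 0.0344). With that block and only the 2 groups in the fit it did not pass (limma adjusted p = 0.0893).

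Ccl5, a further chemokine of effector and memory CD8 T cells, moved the other way, with 8.30, 8.01 and 7.67 in naive cells and 7.09, 7.24 and 7.46 in anergy cells. Its difference of -0.73 ± 0.24 (SE) lay at the threshold (adjusted p just under it, 0.05 after rounding). The call was lost without naive replicate 1 or 2, deletion replicate 1 or any anergy replicate, with a replicate block and after quantile normalization. Smaller rises of the list were those of Il21 (0.53 ± 0.08), Ccl1 (0.43 ± 0.13), Il10 (0.35 ± 0.10) and Csf2 (0.33 ± 0.08), at naive means of 2.14, 4.07, 2.84 and 3.21. Il2 did not pass (0.17 ± 0.13). In all, 8 of 10 measured effector cytokines and chemokines were higher, 1 was lower and 1 did not pass, with a median of 0.48 against 0.01 over all genes. The call of Il10 was lost without naive replicate 1, naive replicate 2 or anergy replicate 3 (highest adjusted p = 0.0762). In each of these 3 settings the rises of the list numbered 6. They numbered 7 without anergy replicate 1 and after quantile normalization.

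Of 23 inhibitory and tolerance genes listed, 4 were measured under a gene name, and all 4 were higher in anergy: Cd83, Havcr2, Prdm1 and Il10. Havcr2, the inhibitory receptor Tim-3, gave 3.81, 3.59 and 3.86 in naive cells and 4.35, 4.77 and 4.73 in anergy cells (1.82-fold; 1.51 to 2.19; adjusted p = 0.000351). Prdm1, the transcription factor Blimp-1 of terminal effector cells, gave 4.30, 4.18 and 4.24 against 4.68, 5.19 and 5.02 (1.65-fold; 1.37 to 1.99; adjusted p = 0.0011). Cd83, a surface protein of activated lymphocytes and dendritic cells, gave 4.78, 4.56 and 4.05 against 6.41, 6.58 and 5.87. Anergy replicate 3 was the lowest of its group for Cd83, 0.62 under the mean of the other two, and still above all naive arrays (3.54-fold; 2.53 to 4.96; adjusted p = 0.00014). Pdcd1, Ctla4 and Lag3 were not among the named probe sets and were not analysed here.

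Genes of the naive and memory state fell: 6 of 7 measured were lower, 0 were higher, and the median difference was -1.40. Ccr9, the receptor that guides T cells to the small intestine, gave 10.26, 10.22 and 10.02 in naive cells and 4.92, 4.80 and 4.65 in anergy cells. This fall of 41.5-fold (33.8 to 51.1; adjusted p = 1.91e-09) was the largest of any gene by its brightest probe set, and the other Ccr9 probe set gave -4.88. Igfbp4, which binds insulin-like growth factors, fell 8.67-fold (7.11 to 10.6; adjusted p = 5.25e-08) in its brightest probe set and by 4.82 and 6.12 on the log2 scale in the other two. Il7r, the interleukin-7 receptor chain, gave 10.14, 10.34 and 10.15 against 8.07, 7.97 and 7.42, with anergy replicate 3 lowest (5.24-fold; 3.84 to 7.16; adjusted p = 1.16e-05). Ccr7, the lymph node homing receptor, gave 10.49, 10.43 and 10.32 against 9.17, 9.24 and 8.64 (2.63-fold; 2.06 to 3.36; adjusted p = 9.57e-05). Il6st, the shared receptor chain gp130, fell by 0.92 ± 0.13. Il6ra did not pass in its brightest probe set (-0.16 ± 0.10), although another of its probe sets gave -1.27 and passed (adjusted p = 7.32e-07).

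**Figure D1:**
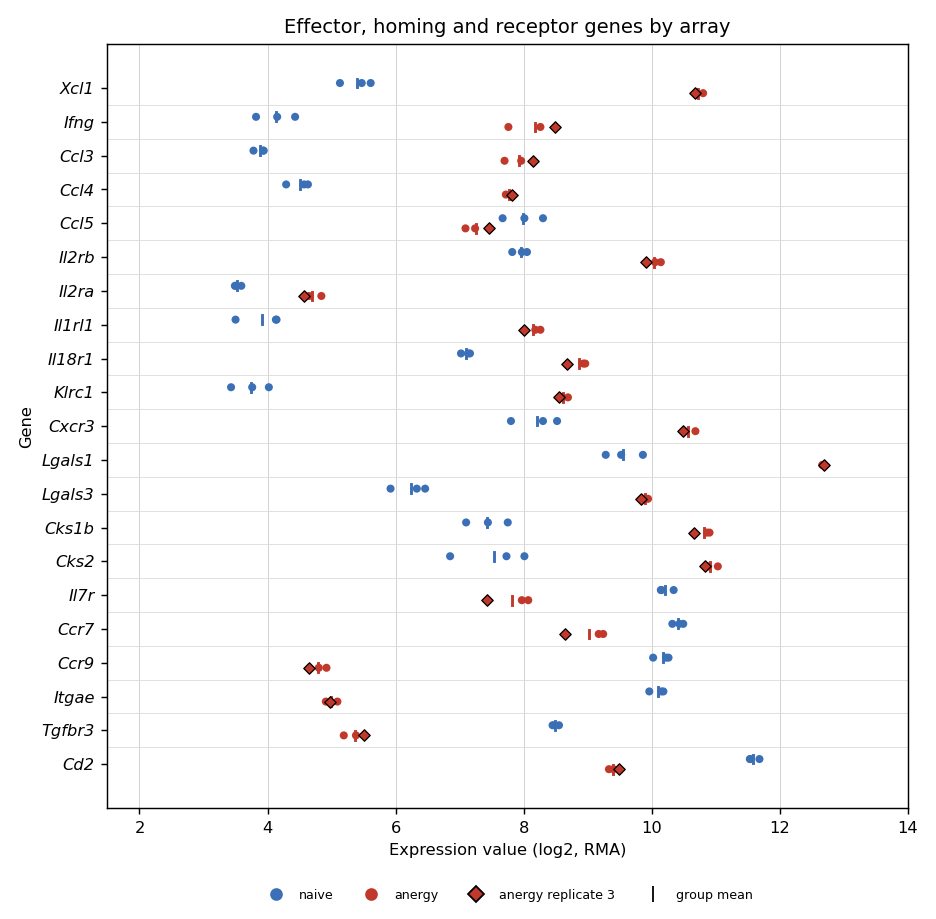
Log2 expression value (horizontal axis) of 21 effector, homing and receptor genes (vertical axis) in each of the 3 naive (blue) and 3 anergy (red) arrays, with bars at the group means and anergy replicate 3 as an outlined diamond. The groups do not overlap for any gene shown, from Xcl1 (means 5.40 and 10.72) to Cd2 (11.58 and 9.40), and the means lie closest for Ccl5 (7.99 and 7.26).

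Integrins, adhesion molecules and receptors for transforming growth factor beta (TGF-beta) were mostly lower in anergy: 10 of 19 measured fell, 2 rose and 7 did not pass, with a median of -0.31. Itgae, the integrin chain CD103 that binds E-cadherin and is induced by TGF-beta, gave 10.15, 9.96 and 10.18 in naive cells and 5.09, 4.91 and 4.98 in anergy cells. It had the smallest adjusted p of the comparison (34.4-fold lower; 30.1 to 39.2; adjusted p = 1.21e-10). All 3 measured TGF-beta receptors fell. Tgfbr3, the proteoglycan co-receptor betaglycan, gave 8.55, 8.48 and 8.45 against 5.19, 5.38 and 5.50 (8.79-fold; 7.39 to 10.5; adjusted p = 2.59e-08). Tgfbr2, the ligand-binding receptor, fell 2.78-fold (2.29 to 3.37), and Tgfbr1, its signalling partner, 2.26-fold (1.66 to 3.05). The transcripts of the ligands Tgfb1 (0.19 ± 0.13), Tgfb2 (0.05 ± 0.05) and Tgfb3 (-0.02 ± 0.07) did not pass.

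Cd2, an adhesion receptor of T cells, gave 11.68, 11.54 and 11.53 in naive cells and 9.33, 9.40 and 9.48 in anergy cells (4.53-fold lower; 3.67 to 5.59; adjusted p = 1.04e-06). Icam1 fell 2.50-fold (2.16 to 2.89), and Icam2, another ligand of LFA-1, fell by 0.68 ± 0.10. Cd48, the ligand of CD2 in mice, rose by 0.21 ± 0.07, and Acvr1, an activin and BMP receptor, by 0.38 ± 0.11. These were the 2 rises of the list, and 0 of them remained called without naive replicate 2 or without anergy replicate 2. Pecam1 (CD31) fell by 0.30 ± 0.09 (adjusted p = 0.0405), a call that 10 of the other 16 settings did not keep.

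Chemokine receptors split, with 6 of 19 higher, 4 lower and 9 not past the threshold (median 0.04). Cxcr3, which leads effector T cells into inflamed tissue, gave 8.30, 8.52 and 7.80 in naive cells and 10.68, 10.51 and 10.48 in anergy cells (5.10-fold; 3.96 to 6.56; adjusted p = 2.6e-06). Ccr6, the receptor of CCL20, gave 4.93, 5.07 and 4.84 against 5.97, 6.13 and 5.8 (2.03-fold; 1.72 to 2.39; adjusted p = 5.24e-05). Other rises included those of Ccr10 (0.94 ± 0.15), Cxcr4 (0.67 ± 0.14) and Cx3cr1 (0.44 ± 0.07). For Cxcr4 the anergy arrays gave 8.86, 8.89 and 8.35, so that replicate 3 lay 0.32 above the naive mean and the other two 0.85. Beside Ccr9 and Ccr7, Cxcr6, the CXCL16 receptor, fell by 1.27 ± 0.15, and Ccr4 by 0.26 ± 0.07.

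Cytokines and receptor chains of the common gamma chain family moved in both directions, 3 of 13 higher and 4 lower. The rises were those of the chains Il2rb and Il2ra and of the cytokine Il21, given above. Il2rb, the signalling chain shared by the receptors of interleukin-2 and interleukin-15, gave 7.97, 8.05 and 7.82 in naive cells and 10.14, 10.05 and 9.91 in anergy cells (4.25-fold; 3.69 to 4.89; adjusted p = 8.63e-08). Il2ra, the chain that gives the interleukin-2 receptor its high affinity, gave 3.59, 3.49 and 3.50 against 4.65, 4.84 and 4.57 (2.23-fold; 1.88 to 2.65; adjusted p = 2.68e-05). The chains that fell were Il7r, Il21r (-0.99 ± 0.08), Il4ra (-0.63 ± 0.08) and the common chain Il2rg (-0.60 ± 0.08).

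Of 37 receptors for other interleukins, interferons and colony-stimulating factors, 8 rose and 7 fell. Csf2ra (0.36 ± 0.12) and Csf2rb (0.40 ± 0.11), the chains of the GM-CSF receptor, were among the rises, and their calls held in 6 and 12 of 17 settings. Il1rl1, the receptor of the alarmin interleukin-33, gave 3.50, 4.13 and 4.14 in naive cells and 8.18, 8.26 and 8.0 in anergy cells (18.7-fold; 14.7 to 23.7; adjusted p = 2.71e-08). Its other probe set, built on a different accession, gave a difference of only 0.21 (adjusted p = 0.0496). Both chains of the interleukin-18 receptor rose, Il18r1 by 3.37-fold (2.89 to 3.93) and Il18rap by 2.64-fold (2.24 to 3.11). Both chains of the interferon-gamma receptor fell. Ifngr2, the signalling chain, gave 6.51, 6.69 and 6.79 against 4.72, 4.60 and 4.89 (3.80-fold lower; 3.27 to 4.42; adjusted p = 2.1e-07), and Ifngr1, the binding chain, fell by 0.71 ± 0.08. Il27ra, the interleukin-27 receptor, fell 2.61-fold (2.36 to 2.90), and Ifnar1, a chain of the type 1 interferon receptor, by 0.80 ± 0.14, with anergy replicate 3 lowest (7.41, 7.30 and 6.82).

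Of 18 measured NK-type lectin receptors, 4 rose and 2 fell (33.3% called, near the 29.7% of all named genes). Klrc1 (NKG2A), the inhibitory receptor for Qa-1, gave 3.76, 4.02 and 3.43 in naive cells and 8.69, 8.60 and 8.55 in anergy cells. The rise was 29.4-fold (22.1 to 39.1; adjusted p = 3.33e-08). Its partner Klrd1 (CD94), with which it forms the receptor, fell instead, from 11.33, 11.51 and 11.35 to 10.53, 10.53 and 10.38 (1.89-fold; 1.62 to 2.20; adjusted p = 5.95e-05). Klrk1 (NKG2D), an activating receptor, rose by 0.79 ± 0.14, Klrc3 by 0.63 ± 0.10 and Klra6 by 0.29 ± 0.07, all from naive means of 2.76 to 3.02. The probe sets of Klrc family members can share sequence, so how the signal divides among them is uncertain. Clec2d, a ligand of NK receptors, fell by 0.91 ± 0.26, and 1 fall in place of 2 was left in the list without anergy replicate 2 or 3 and after quantile normalization. Cd69, an early activation lectin, gave 8.84, 8.91 and 8.54 against 7.44, 8.05 and 8.33 and did not pass (-0.82 ± 0.41; adjusted p = 0.189).

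The largest rise of the whole array belonged to a probe set that could not be named here, uc009ego.1, singled out after its values were seen. It gave 2.84, 2.83 and 2.53 in naive cells and 9.19, 9.46 and 9.34 in anergy cells, a rise of 96.8-fold (76.3 to 123.0; adjusted p = 1.46e-09). A second unnamed probe set, uc009egi.1, rose 15-fold (11 to 20.6). Of the 334 called probe sets 282 had a gene name.

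The genes for small cell cycle subunits rose together. Cks1b gave 7.75, 7.44 and 7.10 in naive cells and 10.86, 10.90 and 10.66 in anergy cells, and Cks2 gave 8.01, 7.73 and 6.85 against 10.88, 11.03 and 10.83. Both were 10.4-fold higher (7.97 to 13.5 and 7.14 to 15.2), with naive replicate 3 the lowest array for both. They are close paralogs, and how the probe sets divide their signal is uncertain. Aldoa, a glycolytic aldolase, rose by 0.55 ± 0.06 and by 0.49 in its other probe set, and Gpi1, an earlier enzyme of glycolysis, by 0.25 ± 0.08 (adjusted p = 0.0433, lost in 9 of the other 16 settings). In this list 4 of 5 measured genes were higher and Hk1 did not pass (0.23 ± 0.11). Outside the lists, Angptl2, a secreted angiopoietin-like protein, rose 6.92-fold (5.61 to 8.53; adjusted p = 1.56e-07), and Ovgp1, an oviductal glycoprotein, fell 3.37-fold (2.37 to 4.80; adjusted p = 0.000242).

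Galectins, lectins that bind galactose-containing glycans on the T cell surface, gave 2 rises and 3 falls among 9 measured. Lgals1 gave 9.86, 9.52 and 9.28 in naive cells and 12.66, 12.69 and 12.69 in anergy cells (8.73-fold; 7.05 to 10.8; adjusted p = 9.1e-08). Lgals3 gave 6.33, 5.92 and 6.46 against 9.89, 9.94 and 9.83 (12.6-fold; 9.59 to 16.4; adjusted p = 1.42e-07). The anergy replicates of both were close to each other and far from the naive ones. Lgals8 fell by 0.66 ± 0.10, Lgals4 by 0.55 ± 0.10 and the galectin-related Grifin by 0.45 ± 0.07, while Lgals9 did not pass (0.26 ± 0.11). Of 9 Siglecs, receptors of sialic acid, Cd22 rose by 0.98 ± 0.16 and Siglecf by 0.39 ± 0.09, and 0 fell. The share called was 22.2%, beside 29.7% of all named genes.

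Turning to glycan synthesis and breakdown, the union of 13 lists held 227 measured genes, of which 35 were higher in anergy, 52 were lower and 140 did not pass (38.3% called, beside 29.7% of all named genes). The changes of at least 2-fold were 8 rises and 11 falls, and the median difference was -0.03.

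The enzymes that start O-GalNAc glycans by adding GalNAc to serine or threonine gave 5 falls and 0 rises among 19. The share called was 26.3%, beside 29.7% of all named genes. Galnt10 gave 8.87, 9.32 and 9.05 in naive cells and 5.20, 5.48 and 5.02 in anergy cells (14.4-fold lower; 11.7 to 17.7; adjusted p = 2.32e-08). Galnt6 gave 9.39, 9.49 and 9.33 against 7.73, 7.68 and 7.62 (3.31-fold; 2.99 to 3.67), and Galnt11 fell 2.50-fold (2.06 to 3.02), with anergy replicate 3 lowest at 6.01 against 6.55 and 6.46. Galnt2 and Galnt12 each fell by 0.40. The other 14 did not pass, and 1 rise was called without naive replicate 1, anergy replicate 2 or anergy replicate 3, with a replicate block and after quantile normalization.

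Of 13 genes that extend these glycans, Gcnt1 and B4galt5 rose and St3gal1 fell (23.1% called, beside 29.7% of all named genes). Gcnt1, which makes the core 2 branch, gave 2.54, 2.51 and 2.98 in naive cells and 5.08, 4.71 and 4.70 in anergy cells (4.45-fold; 3.55 to 5.57; adjusted p = 2.07e-06), but its other probe set gave 0.26 and did not pass (adjusted p = 0.104). St3gal1, which caps core 1 with sialic acid and so competes with that branch, gave 8.91, 9.13 and 9.02 against 8.54, 8.15 and 8.07 (1.70-fold lower; 1.42 to 2.03; adjusted p = 0.000608). C1galt1, the core 1 synthase, did not pass (0.14 ± 0.10).

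Selectin ligands, the sulfated, fucosylated and sialylated sugars with which T cells roll on endothelium, had 4 of 13 genes higher, Gcnt1 among them, and 2 lower. Chst2, a sulfotransferase for GlcNAc, gave 3.66, 3.35 and 3.41 in naive cells and 7.33, 7.42 and 6.85 in anergy cells (13.2-fold; 10.2 to 17.1; adjusted p = 9.64e-08). Cd44, a carrier of selectin ligands and the receptor of hyaluronan, rose 3.91-fold (3.00 to 5.10). Fut7, the fucosyltransferase that completes sialyl Lewis x, gave 5.90, 5.94 and 5.52 against 6.44, 6.44 and 6.21 (1.49-fold; 1.19 to 1.88; adjusted p = 0.0149). Its call was lost without naive replicate 3, anergy replicate 1 or anergy replicate 2 (highest adjusted p = 0.0568). B4galt1 fell by 0.74 ± 0.10 and Tpst2, a tyrosine sulfotransferase, by 0.75 ± 0.07, while St3gal4 (0.04 ± 0.09) and St3gal6 (0.02 ± 0.09), the sialyltransferases of these ligands, did not pass.

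Sialyltransferases as a family gave 2 rises and 5 falls among 19 (36.8% called, beside 29.7% of all named genes). St6gal1, the N-glycan sialyltransferase that builds the ligand of CD22, gave 10.86, 11.05 and 10.80 in naive cells and 8.77, 8.63 and 8.16 in anergy cells (5.22-fold lower; 4.16 to 6.54; adjusted p = 9.26e-07). St8sia1, the GD3 synthase, gave 7.84, 7.84 and 7.73 against 4.93, 5.40 and 5.07 (6.36-fold; 5.26 to 7.71; adjusted p = 1.15e-07). St3gal3 (-0.62 ± 0.07) and St8sia6 (-0.49 ± 0.12) fell too, and St3gal5, the GM3 synthase (0.52 ± 0.10), and St6galnac6 (0.34 ± 0.09) rose, of which 1 call was left without naive replicate 2. In sialic acid metabolism 1 of 11 genes rose and 3 fell (36.4% called). Nans, which condenses sialic acid, rose by 0.78 ± 0.12, whereas Cmah, which converts it to the N-glycolyl form, fell by 0.98 ± 0.11, the sialidase Neu1 2.03-fold (1.77 to 2.34) and its protective partner Ctsa by 0.50 ± 0.08.

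**Figure D2:**
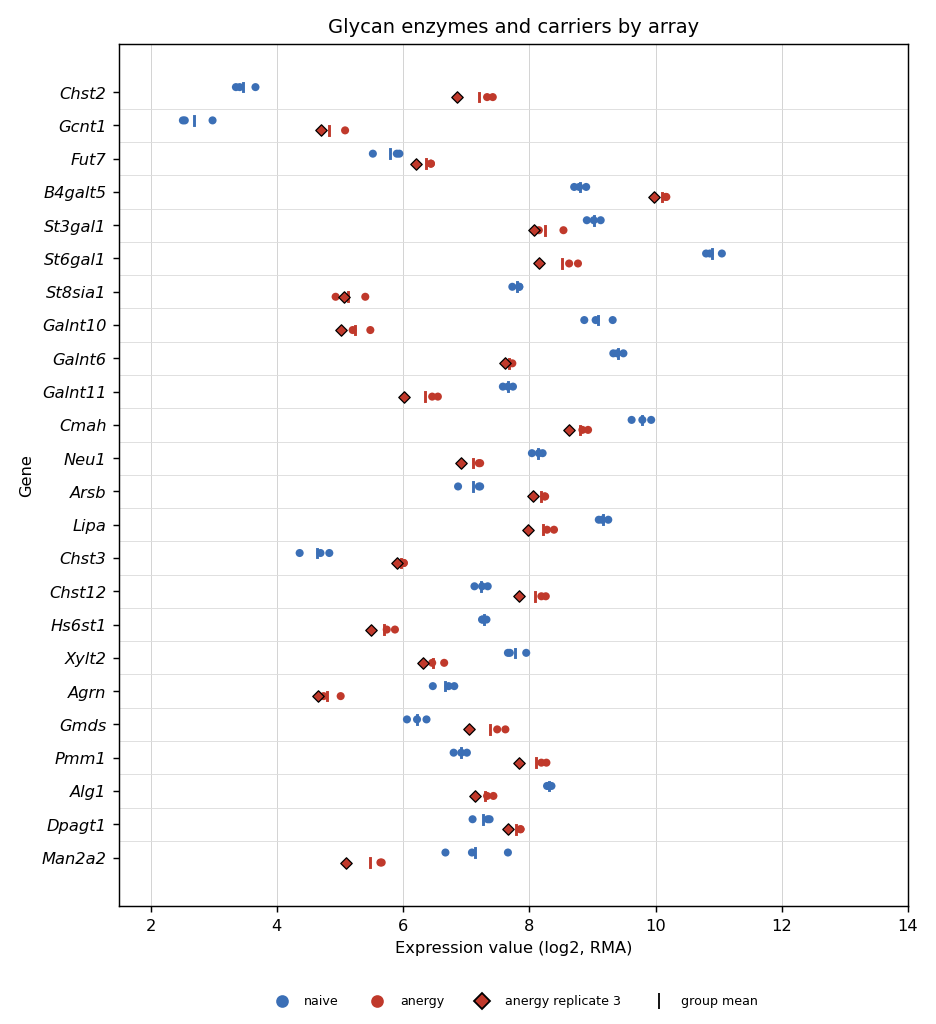
Log2 expression value (horizontal axis) of 24 glycan enzymes, carriers and lysosomal genes (vertical axis) in each naive (blue) and anergy (red) array, with bars at the group means and anergy replicate 3 as an outlined diamond. No gene shown has overlapping groups, and the widest gaps are those of Galnt10 (means 9.08 and 5.23) and Chst2 (3.47 and 7.2).

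Enzymes of the dolichol-linked N-glycan precursor gave 6 rises and 4 falls among 16. The rises were Alg6 (0.59 ± 0.11), Alg10b (0.57 ± 0.12), Alg13 (0.55 ± 0.13), Dpagt1 (0.52 ± 0.09), Alg8 (0.49 ± 0.08) and Ddost (0.41 ± 0.10). Alg6, Alg8 and Alg10b are the glucosyltransferases that finish the precursor, and all 3 rose. Alg6 was dim, with means of 2.58 in naive and 3.16 in anergy cells. The falls were those of the mannosyltransferases Alg1 (-1.01 ± 0.09), Alg2 (-0.49 ± 0.13) and Alg12 (-0.36 ± 0.11) and of Alg5, which makes the glucose donor (-0.31 ± 0.09). The count of falls dropped to 1 without naive replicate 2 and to 2 without naive replicate 3, deletion replicate 1 or anergy replicate 3 and after quantile normalization.

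N-glycan processing and branching had 3 rises and 3 falls among 18 genes (33.3% called, near the 29.7% of all named genes). Man2a2, a Golgi mannosidase, gave 6.67, 7.09 and 7.66 in naive cells and 5.64, 5.66 and 5.10 in anergy cells (3.19-fold lower; 2.23 to 4.56; adjusted p = 0.000351), with the naive arrays widely spread. B4galt1 and B4galt3 (-0.44 ± 0.08), which add galactose, fell. B3gnt2, which extends polylactosamine, rose by 0.54 ± 0.10, Fut8, the core fucosyltransferase, by 0.42 ± 0.10 and Mgat1, which opens the way to complex N-glycans, by 0.34 ± 0.09. Mgat5, the branching enzyme that restrains T cell receptor clustering, did not pass (0.02 ± 0.09). Rises in this list numbered 5 after quantile normalization.

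Nucleotide sugar supply had 9 rises and 4 falls among 36, with a median of 0.12 (36.1% called, beside 29.7% of all named genes). Pmm1, a phosphomannomutase, gave 7.01, 6.92 and 6.80 against 8.27, 8.19 and 7.83 (2.28-fold; 1.86 to 2.78; adjusted p = 6.96e-05). Gnpda1 rose by 0.94 ± 0.07, Uap1l1 by 0.80 ± 0.12 and Ugdh, which makes UDP-glucuronic acid, by 0.75 ± 0.11. Gmds, the first enzyme of GDP-fucose synthesis, belongs to the fucosylation list (3 of 15 higher and 3 lower) and gave 6.22, 6.37 and 6.06 against 7.62, 7.49 and 7.04 (2.24-fold; 1.81 to 2.79), with anergy replicate 3 lowest. In the same list Slc35c1, the GDP-fucose transporter, fell by 0.49 ± 0.11 and Pofut2 by 0.45 ± 0.08. The nucleotide sugar rises numbered 14 after quantile normalization and 5 after median centring or without naive replicate 3, anergy replicate 1 or anergy replicate 2, and the falls 2 without naive replicate 2 or anergy replicate 3.

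For heparan and chondroitin sulfate, 5 of 43 genes rose and 11 fell (37.2% called, beside 29.7% of all named genes). Hs6st1, a heparan 6-O-sulfotransferase, gave 7.25, 7.32 and 7.26 in naive cells and 5.74, 5.87 and 5.49 in anergy cells (2.98-fold lower; 2.58 to 3.44; adjusted p = 6.94e-07). Xylt2, which starts the chains, fell 2.45-fold (2.09 to 2.87). Agrn, the heparan sulfate core protein agrin, gave 6.47, 6.72 and 6.81 against 5.01, 4.74 and 4.65 (3.65-fold; 3.04 to 4.37). Ndst1 (-0.65 ± 0.11), Glce (-0.66 ± 0.15) and Ext2 (-0.29 ± 0.09), all of heparan sulfate assembly, fell as well. The 5 rises were Hpse, the heparanase that cleaves heparan sulfate (0.60 ± 0.10), and 4 chondroitin sulfate enzymes, Chst3 (1.35 ± 0.18), Chst12 (0.85 ± 0.13), Chsy1 (0.77 ± 0.12) and Chst11 (0.69 ± 0.07), while Chst15 (-0.98 ± 0.12), Csgalnact2 (-0.85 ± 0.15) and Ust (-0.76 ± 0.13) of the same pathway fell. Proteoglycan core proteins had 4 rises, with Vcan at 0.63 ± 0.09, and 4 falls among 27 (29.6% called, beside 29.7% of all named genes). Their rises numbered 2 without naive replicate 2, naive replicate 3 or anergy replicate 3, and their falls 2 without anergy replicate 2.

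Glycosphingolipid genes had 4 rises and 1 fall among 17 (29.4% called, near the 29.7% of all named genes). B4galt5, a lactosylceramide synthase, gave 8.79, 8.90 and 8.71 in naive cells and 10.17, 10.16 and 9.97 in anergy cells (2.46-fold; 2.13 to 2.84; adjusted p = 3.09e-06), and B3gnt5, which starts the lacto series, rose by 0.99 ± 0.17. For B3gnt5 the anergy arrays gave 7.91, 7.97 and 7.39, with replicate 3 at 0.62 above the naive mean and the other two at 1.17. St3gal5, next in the ganglioside path, rose and St8sia1, which follows it, fell, as given above. For glycosylphosphatidylinositol (GPI) anchors 2 of 7 genes fell (28.6% called, also near that share) and 0 rose (2 after quantile normalization). The falls were those of Piga (1.09 ± 0.15) and Pigp (0.90 ± 0.09), both of the complex that starts the anchor.

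Lysosomal genes of glycan breakdown were mostly lower, 13 of 24 lower and 2 higher, with a median of -0.38. Neu1, Idua (-0.85 ± 0.12), Arsa (-0.77 ± 0.07), Gaa (-0.72 ± 0.11) and Hexa (-0.66 ± 0.08) were among the falls. So was Lipa (-0.95 ± 0.12), an acid lipase that the list counts although it acts on lipids. Arsb, which removes sulfate from dermatan and chondroitin sulfate, rose instead, from 7.2, 7.22 and 6.87 to 8.24, 8.25 and 8.06 (2.12-fold; 1.80 to 2.51; adjusted p = 3.5e-05), and Gusb rose by 0.32 ± 0.10. Gusb was lost after median centring and without any 1 of 7 arrays (all but naive replicate 2 and anergy replicate 3), which left Arsb as the 1 rise. After quantile normalization 4 rises were called. In the list of O-mannose, O-fucose, O-GlcNAc and Notch genes 9 of 21 fell and 0 rose (1 after quantile normalization), with a median of -0.27. Notch2 (-0.91 ± 0.16, with 6.89, 7.07 and 6.47 in the anergy arrays), Notch1 (-0.78 ± 0.11), the ligand Jag2 (-0.65 ± 0.06) and the Fringe enzymes Mfng (-0.67 ± 0.10) and Lfng (-0.62 ± 0.15), which modify O-fucose on Notch, were among them. Ogt, the O-GlcNAc transferase, did not pass (-0.49 ± 0.18; adjusted p = 0.0865), though it did with a replicate block and without naive replicate 1 (lowest adjusted p = 0.0178).

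**Figure D3:**
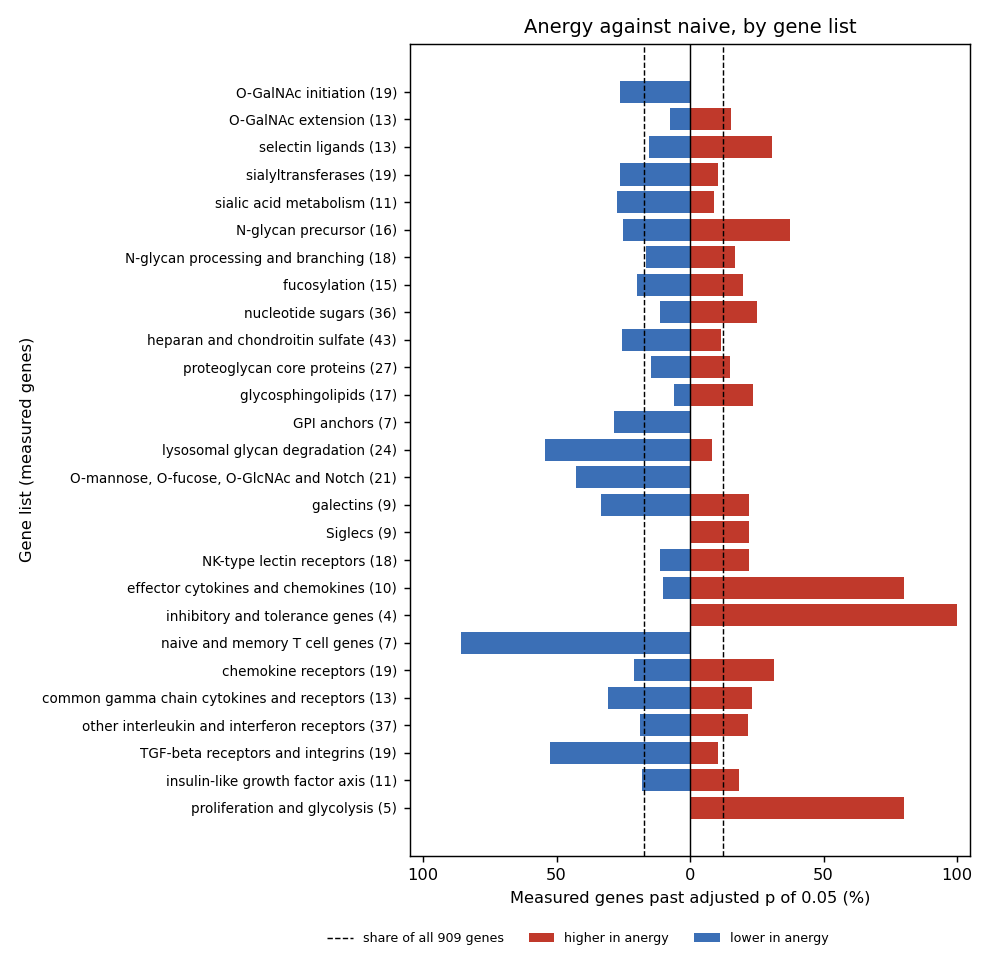
Share of measured genes called in anergy against naive cells (horizontal axis, percent) for each of 27 gene lists (vertical axis, number measured in brackets), higher in red to the right and lower in blue to the left. Dashed lines mark the shares over all 909 named genes, 12.5% higher and 17.2% lower. Effector genes (8 of 10 higher) and naive and memory genes (6 of 7 lower) lie farthest from those lines among lists with more than 5 genes.

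Of the insulin-like growth factor axis 2 of 11 genes were higher and 2 lower (36.4% called, beside 29.7% of all named genes). Igfbp7, a secreted binding protein, gave 4.29, 4.49 and 4.51 in naive cells and 6.16, 6.25 and 6.16 in anergy cells (3.39-fold; 3.03 to 3.78; adjusted p = 4.98e-08). Igf2r, the mannose 6-phosphate receptor, rose by 0.29 ± 0.09 (adjusted p = 0.0433) and lost its call in 9 of the other 16 settings. Igf1r, the receptor for insulin-like growth factor 1, gave 6.09, 6.03 and 6.02 in naive cells and 4.97, 4.75 and 3.80 in anergy cells. All 3 anergy arrays were lower, but anergy replicate 3 was 1.06 under the other two, so that the size of the fall (2.91-fold; 1.96 to 4.32; adjusted p = 0.0011) is loosely held, and its call stayed without that array (adjusted p = 0.000332).

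Anergy replicate 3 differed by 0.5 or more from the mean of replicates 1 and 2 for 47 probe sets, 15 upward and 32 downward, against 6 to 24 such probe sets for each of the other 8 arrays compared in the same way. At a limit of 1 it had 4 such probe sets and was not the highest, since deletion replicate 3 had 9. Its residual SD was 0.166, against 0.095 to 0.128. The 10 largest departures among named probe sets were Igf1r, Ugp2 (7.38, 7.32 and 6.61 in anergy replicates 1 to 3), Cd83, Cntfr (6.13, 6.19 and 6.77), Galnt4 (7.08, 7.05 and 6.46), Il7r, Cd69, B3galnt2 (7.07, 7.03 and 6.47), Ext1 (7.14, 7.12 and 6.55) and Ccr7. Ugp2, Cntfr, Galnt4, Ext1 and Cd69 did not pass against naive cells with or without it, and the other 5 passed both ways. For all 334 called probe sets this array lay on the same side of the naive mean as the mean of replicates 1 and 2, and for 197 it lay farther away. The calls were made with this array in the fit, so the shared side is partly built in. Without this array 295 of the 334 were still called, 39 were lost and 35 others were gained, which gave 150 higher and 180 lower.

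**Figure D4:**
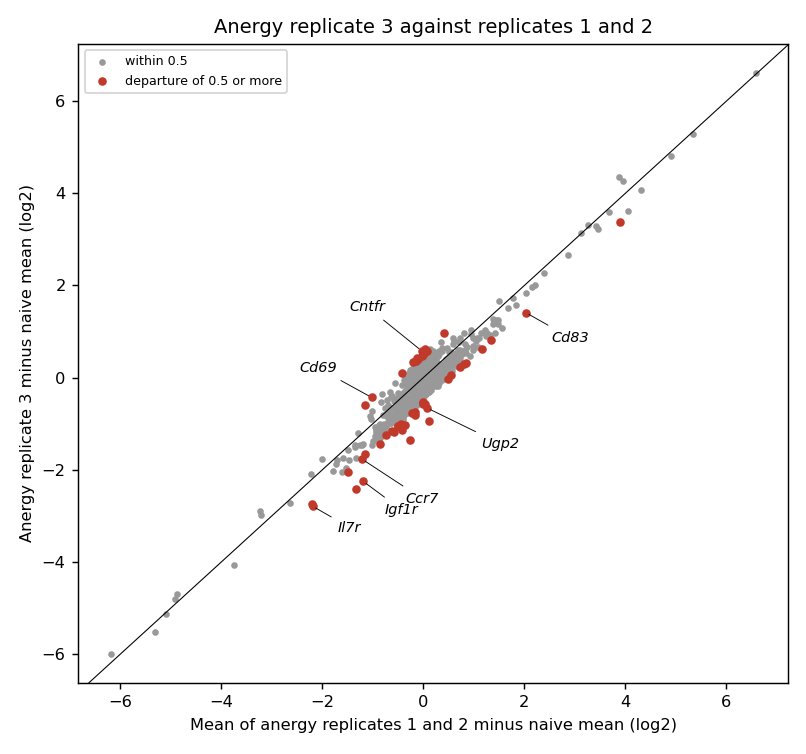
Difference from the naive mean (log2) of anergy replicate 3 (vertical axis) against that of the mean of anergy replicates 1 and 2 (horizontal axis) for all 1246 probe sets, with the line of equality. The 47 probe sets in red depart by 0.5 or more, and 32 of them lie below the line. Igf1r departs by -1.06 and Ugp2 by -0.74.

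The same fit tests whether a gene's level in anergy cells differed from that in deletion cells. In that comparison 42 probe sets (3.37%) were called, 16 higher (1.28%) and 26 lower (2.09%) in anergy, and 40 of them also differed from naive cells. With the replicate number as a block over all 9 arrays, 55 were called, 39 of them among the 42. With that block and only these 2 groups in the fit, chosen after seeing the data, 27 were called. Of these, 22 were among the 42. In 33 of the 40 anergy lay farther from naive than deletion did (15 higher and 18 lower), and in 5 it lay between naive and deletion. In the other 2, Il12rb2 and Pecam1, naive lay between the groups and deletion was the farther one: the means in naive, deletion and anergy cells were 3.57, 3.15 and 3.84 for Il12rb2, a chain of the interleukin-12 receptor, and 8.54, 8.97 and 8.25 for Pecam1. The comparisons share the anergy arrays, so this split is a description. Klrc1 was 3.65-fold higher in anergy than in deletion (2.74 to 4.85), with 6.68, 6.42 and 7.14 in deletion replicates 1 to 3, and Il1rl1 3.60-fold higher, with 6.29, 6.29 and 6.32. Some of these genes did not pass between deletion and naive cells. Ccr6 gave 5.02, 4.73 and 4.95 there and was 2.09-fold higher in anergy (1.78 to 2.47; adjusted p = 0.000368), and Il2ra gave 3.79, 3.39 and 3.74 and was 2.07-fold higher (1.74 to 2.45; adjusted p = 0.000525). Havcr2 was 1.70-fold higher (1.41 to 2.04; adjusted p = 0.00608) and Prdm1 1.74-fold higher (1.45 to 2.10; adjusted p = 0.00514).

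On the lower side, St6gal1 was 2.80-fold (2.23 to 3.50) and St8sia1 2.46-fold (2.03 to 2.97) lower in anergy than in deletion (adjusted p = 0.000368 for both), and Galnt10 2.00-fold lower (1.63 to 2.47; adjusted p = 0.00275). For these 3 enzymes the deletion arrays lay between the other groups, with no overlap. Igfbp7 and Cd83 rose against naive cells but stayed under deletion cells, by 1.06 ± 0.07 (adjusted p = 7.27e-05) and 1.00 ± 0.22 (adjusted p = 0.0358), and so did Chst3, by 0.91 ± 0.18 (adjusted p = 0.0231). The call of Cd83 depended on the fit. With a replicate block and only the anergy and deletion groups it did not pass (limma adjusted p = 0.053). Xcl1, Ifng, Ccl3, Chst2, Gcnt1, Lgals1, Ccr9 and Tgfbr3, all changed against naive cells, did not pass against deletion, which does not show that their levels are alike: the 95% limits for Ifng, for example, were 0.763 to 2.11 in the ratio of deletion to anergy.

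**Figure D5:**
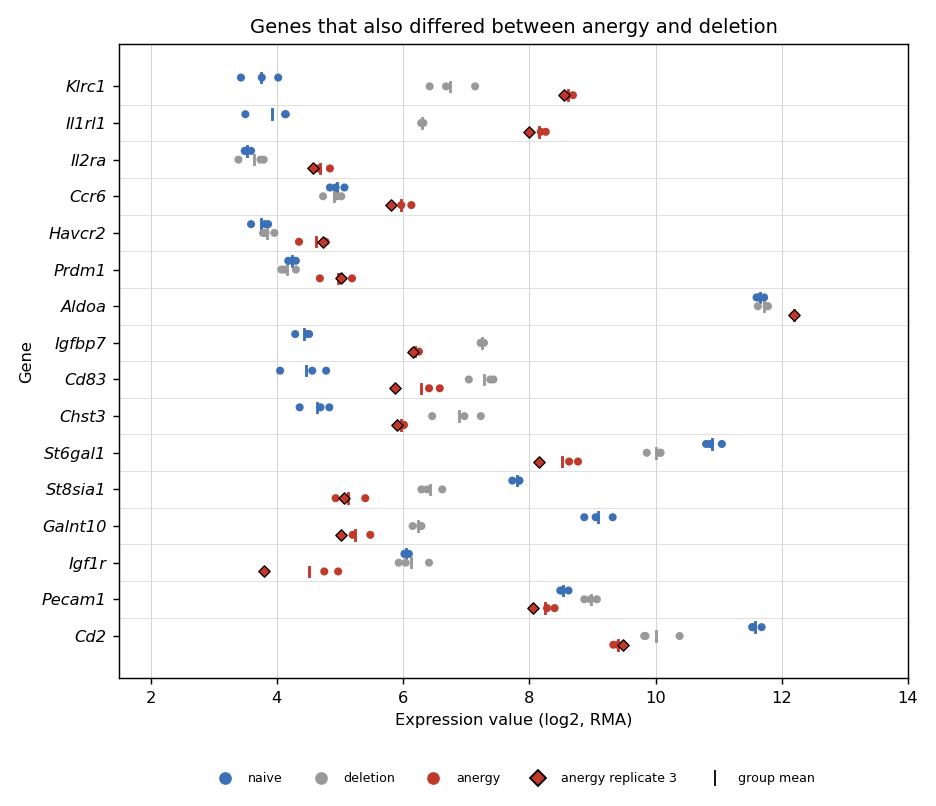
Log2 expression value (horizontal axis) of 16 genes that differed from naive and from deletion cells (vertical axis) in each naive (blue), deletion (grey) and anergy (red) array, with bars at the group means and anergy replicate 3 as an outlined diamond. Deletion lies between naive and anergy for Klrc1 (3.74, 6.75 and 8.61 as naive, deletion and anergy means) and St8sia1 (7.80, 6.43 and 5.13), and beyond anergy for Igfbp7 (4.43, 7.25 and 6.19).

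Markers of the labelled cell type could be checked only in part: of 12 T cell identity genes Cd2 alone matched a named probe set, and it fell. Of the markers of other cells, B cell genes had 1 of 5 higher (Cd22) and 1 lower (Cd72, -1.64 ± 0.17), with mean levels of 5.63 to 5.75 in the naive arrays and 5.56 to 5.68 in the anergy arrays. Macrophage and dendritic cell genes had 0 of 15 higher and 1 lower (Ly75, -0.65 ± 0.10), with mean levels of 3.56 to 3.65 and 3.49 to 3.56. Natural killer cell genes had 0 of 2 called, CD4 and regulatory T cell genes 1 of 3 higher (Il2ra), erythroid and granulocyte genes 1 of 4 higher (Siglecf) and endothelial, stromal and platelet genes 1 of 10 lower (Pecam1). Cd74, the invariant chain of antigen-presenting cells, varied between arrays more than between groups, with 7.70, 7.51 and 5.92 in naive cells and 6.94, 7.42 and 7.51 in anergy cells. The part of such cells in the rises of Cd22, Cd83 and other genes they share was not tested.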

How the data were processed

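RNA of transgenic CD8 T cells (0.5 micrograms each, per the labels' protocols) was measured on 9 GLYCOv4 arrays, 3 per group. The deposited values are log2 expression values, 1 per probe set and array, made by the authors with RMA per the submitters' processing notes. The log base was read from the values (1.67 to 13.86), and the sources used here give no RMA version, background settings or filters. No detection call was used, and how well the differences of dim genes reflect changes in their transcripts was not tested. Precision is bounded by having only 3 arrays in each group (median SE of a difference 0.087).

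Values were used as deposited. limma 3.58.1 in R 4.3.3 (lmFit, eBayes) was fitted over all 9 arrays with no block, with 6 residual and 3.65 prior degrees of freedom, two-sided, with Benjamini-Hochberg adjustment over the 1246 probe sets of a comparison, and was tested on simulated data. Limits are 95% limits of the fit, SE is its standard error and SD is over 3 arrays. Through RefSeq accessions without version (GRCm38.p6 gene table, used for names), 963 probe sets (77.3%) were named as 909 genes. The other 283 were not. The brightest probe set stood for each of the 48 genes with several, and no gene had probe sets called in opposite directions. Suffixes s (237), x (38) and a (91) can bind several transcripts.

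The named genes were the 15 largest rises and falls without overlap, up to 4 called members of each of 34 lists, 16 preset genes, 10 departures of anergy replicate 3 and 10 genes by their difference from deletion. List members named beside these were picked with their values in view, and some genes of the rule and the lists are not reported here. Same-numbered anergy and deletion arrays had deviations from the group means that correlated at 0.195, 0.27 and 0.28. Those with different numbers correlated at -0.303 to 0.16. The labels do not state a pairing, and whether these arrays are paired was not tested. The members and lists were chosen with earlier results of these data known. Other settings tried were quantile normalization, median centring, the 2 groups alone, a replicate block, array weights, an intensity trend, no moderation, no dim probe sets, a 2-fold limit and each array left out.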

Additional observations from a re-analysis of the deposited data

How the results depend on the processing

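The higher count of 134 probe sets in anergy against naive was 110 to 150 with 1 array left out, and the lower count of 200 was 162 to 199. Against a 2-fold limit they became 22 and 20, since that test asks for more than a difference. No called probe set changed sign in any of the 18 settings. A change of sign was possible only under quantile normalization, median centring, array weights or without a naive or anergy array. The remaining settings keep the same difference of means. The other 8 settings besides leaving arrays out and the 2-fold limit kept both counts within 1.5 times (112 to 179 higher, 162 to 210 lower). The 42 probe sets that differed between anergy and deletion were a less stable count: 70 after quantile normalization, 26 after median centring, 21 with only the 2 groups in the fit, 75 with array weights, 14 with no moderation, 27 with only these 2 groups and a replicate block (chosen after seeing the data; 22 of them among the 42), 0 with a 2-fold limit (limma's treat; 42 by eBayes) and 20 to 44 with 1 array left out, the lowest without deletion replicate 2. The fits of only the 2 groups and the fit with no moderation have fewer degrees of freedom, and for the rest the cause was not tested. Same-numbered anergy and naive arrays had deviations that correlated at -0.154, 0.274 and 0.175, and those with different numbers at -0.286 to 0.149. With a replicate block the counts were 138 higher and 208 lower, and 55 against deletion. Whether the replicate numbers pair the arrays was not tested. All 80 called probe sets of at least 2-fold were called in every setting run for single genes, and 251 of the 334 were.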
